A study of Mus musculus with 3 samples.

Results

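The 8 genes described here, Lyz1, Lyz2, Wfdc17, Hp, Chil3, Cd14, Cebpa and Cebpb, are effector and transcription factor genes that inflammatory (classical) monocytes use. They were chosen by name, as the probe sets whose single annotated gene symbol is one of the 8, and each gene had 1 such probe set, so the members are 8 of 19938 genes measured. The study asks how RBPJ, the nuclear partner of Notch receptors, shapes CD11b+ dendritic cells (DCs) of the mouse spleen. There are 3 groups, and all of them carry a GFP reporter in Cx3cr1 and are CD11c(high) CD11b+ cells sorted from spleens after lymphoid and erythroid cells had been depleted. The RBPJ-deficient Esam(lo) GFP(hi) cells come from RBPJflox/flox mice with CD11c-Cre, which deletes the gene in cells that express CD11c. The control Esam(lo) GFP(hi) cells and the control Esam(hi) GFP(lo) cells come from RBPJflox/flox littermates without Cre. Neither the age of the mice nor how completely Rbpj was deleted is given in the sources used here. Each group is 1 array of RNA pooled from 2 to 3 mice, so there is no replicate error, no test was possible, and every difference compares single arrays.

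Classical monocytes leave the bone marrow for inflamed tissue, where they kill microbes and can become macrophages or DC-like cells. C/EBP alpha and C/EBP beta are leucine zipper transcription factors that, with PU.1, switch on the myeloid programme. Its products include lysozymes, which cut the bacterial cell wall, secreted binding and inhibitor proteins, and CD14, which hands bacterial lipopolysaccharide to the receptor Tlr4. In the spleen, CD11b+ DCs that express Esam depend on Notch2, and the Esam(lo) subset is known for monocyte-like genes.

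The values are log2 expression values, and a gene counted as above background where it exceeded 95% of 1194 odorant and pheromone receptor genes on its array, which these cells are not known to express. Background lay at 6.87 on the array labelled RBPJ-deficient, 6.76 for control Esam(lo) cells and 7.17 for control Esam(hi) cells. Rbpj (probe set 10521913) read 10.04 on the array labelled RBPJ-deficient and 9.85 on each control array, so it was not lower under its own label. Another Rbpj probe set (10521911) read 5.63 on both Esam(lo) arrays and 6.11 on the control Esam(hi) array, below background on all 3. Where the probes of these sets lie relative to the floxed exons is not known here, and the readings therefore check nothing. Esam (10584317) read 6.12 and 6.57 on the labelled and control Esam(lo) arrays, both below background, and 7.79 on the control Esam(hi) array. All 13 classical DC markers on the array, from Zbtb46 and Flt3 to the MHC class II genes, were above background on all 3 arrays.

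The set of RefSeq promoters used here (build GRCm38.p6) held 6 of the 8 genes, without Hp and Cd14. The 250 bases before the start are shown for 4 genes: the neighbouring lysozyme genes Lyz1 and Lyz2, which are nearly copies of one another but differed on the array labelled RBPJ-deficient, Chil3, the other gene that stood higher there, and Wfdc17, which differed most between the control arrays. Capitals mark motif matches on either strand.
Lyz1 promoter, chr10:117292869-117293118, minus strand: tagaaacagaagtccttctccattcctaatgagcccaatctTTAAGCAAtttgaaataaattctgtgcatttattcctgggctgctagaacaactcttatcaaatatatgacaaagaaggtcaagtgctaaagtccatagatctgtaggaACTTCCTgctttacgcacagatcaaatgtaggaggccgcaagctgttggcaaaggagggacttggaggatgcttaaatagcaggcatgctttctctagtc
Lyz2 promoter, chr10:117282273-117282522, minus strand: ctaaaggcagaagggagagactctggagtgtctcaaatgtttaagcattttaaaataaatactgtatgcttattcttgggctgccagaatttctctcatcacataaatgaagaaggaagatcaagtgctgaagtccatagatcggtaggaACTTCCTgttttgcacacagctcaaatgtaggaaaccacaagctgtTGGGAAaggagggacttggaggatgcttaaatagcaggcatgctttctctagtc
Chil3 promoter, chr3:106167565-106167814, minus strand: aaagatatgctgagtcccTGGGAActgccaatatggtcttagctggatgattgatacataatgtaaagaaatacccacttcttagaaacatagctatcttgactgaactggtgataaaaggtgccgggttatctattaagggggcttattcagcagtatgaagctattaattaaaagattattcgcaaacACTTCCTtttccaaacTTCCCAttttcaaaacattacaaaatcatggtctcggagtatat
Wfdc17 promoter, chr11:83703806-83704055, plus strand: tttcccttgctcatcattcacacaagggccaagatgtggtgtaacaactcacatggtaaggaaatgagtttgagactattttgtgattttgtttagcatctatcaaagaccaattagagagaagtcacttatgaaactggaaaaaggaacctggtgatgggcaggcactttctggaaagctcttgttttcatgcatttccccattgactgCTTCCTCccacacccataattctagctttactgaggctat

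The motifs searched were the C/EBP palindrome TTGCGCAA, a relaxed C/EBP form TTGCNNAA (TTNNGCAA on the opposite strand) that includes the palindrome, GAGGAAG for PU.1 (CTTCCTC), and TGGGAA for RBPJ (TTCCCA). All were searched on both strands. AGGAAGT, the core bound by PU.1 and other ETS factors, was added after the sequences were read and overlaps the PU.1 form. Over 32851 promoters of this length, 0.164% held the palindrome, 9.56% the relaxed C/EBP form, 10.6% the PU.1 form, 21.6% the RBPJ form and 7.69% the ETS core. Lyz1 and Lyz2 hold the ETS core at the same place, with its first base at -100 from the start, and 200 of 250 bases of the Lyz1 promoter match in an alignment with Lyz2. The RBPJ form lies at -54 in Lyz2 and has no match in Lyz1, and the relaxed C/EBP form lies at -209 in Lyz1 and has no match in Lyz2. Chil3 holds the RBPJ form at -232 and -44 and the ETS core at -60. Wfdc17 holds the PU.1 form at -40. Cebpa and Cebpb hold none of these letters in the window. A match describes these letters and does not show that a factor binds there.

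Both lysozyme genes were higher on the Esam(lo) arrays than on the control Esam(hi) array. Lyz2 (10372648), the lysozyme of macrophages and granulocytes, read 13.20 on the array labelled RBPJ-deficient, 13.06 in control Esam(lo) cells and 9.97 in control Esam(hi) cells. Relative to control Esam(hi) cells it was 9.42-fold higher on the labelled array and 8.53-fold higher in control Esam(lo) cells. The Esam(lo) arrays therefore stood close together for Lyz2, with a log2 difference of 0.14.

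Lyz1 (10372652), the form best known from the Paneth cells of the small intestine, did not keep that pattern. It read 10.73 on the array labelled RBPJ-deficient, 9.75 in control Esam(lo) cells and 7.42 in control Esam(hi) cells, the last only 0.25 above background. Over control Esam(hi) cells Lyz1 was 9.91-fold higher on the labelled array and 5.01-fold higher in control Esam(lo) cells. Between the Esam(lo) arrays it differed by 0.98, a 1.98-fold difference just under the 2-fold limit used here. Because Lyz1 and Lyz2 are near-identical, their probe sets may share signal, and how much they share is not known here. The other 7 lysozyme-related genes on the array were below background on all 3 arrays.

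**Figure D1:**
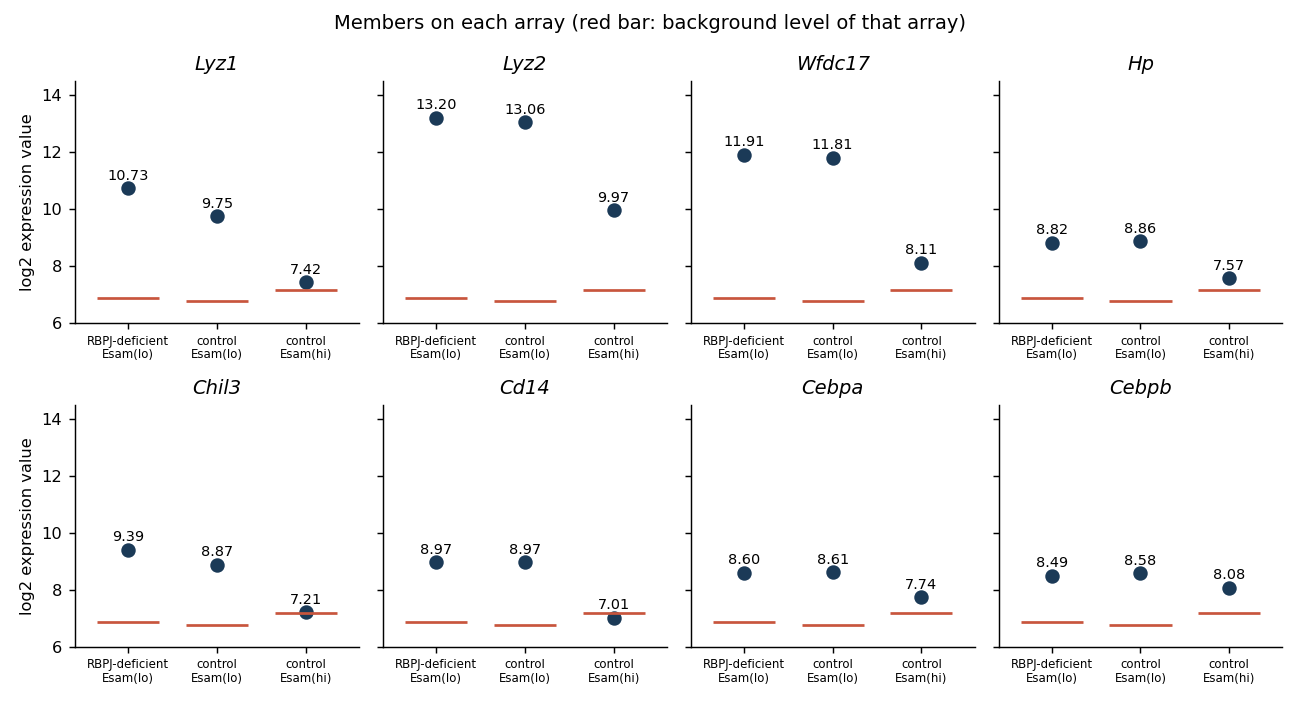
Log2 expression value of each member on the 3 arrays (y axis; 1 point per array, with the array labelled RBPJ-deficient at left), with a red bar at the background level of that array. All 8 genes were lowest on the control Esam(hi) array, where Cd14 read 7.01, below its background, and Lyz1 and Chil3 had different values on the 2 Esam(lo) arrays.

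Wfdc17 (10379727), a small secreted WAP domain protein made by activated macrophages, differed most of the 8. It read 11.91 on the array labelled RBPJ-deficient and 11.81 on the control Esam(lo) array, against 8.11 on the control Esam(hi) array. These are 13.9-fold and 12.97-fold differences, and in both comparisons Wfdc17 had the 4th highest difference of all genes tested. Other genes listed with the WAP domain family did not share it. Of 23 on the array 5 were above background anywhere, and none of the 5 was 2-fold apart in any comparison. Among them were Wfdc21, at 7.09 on all 3 arrays and there below background on the control Esam(hi) array, and Slpi. Slpi, which inhibits neutrophil elastase, read 7.54, 7.54 and 7.64 on the labelled, control Esam(lo) and control Esam(hi) arrays. Wfdc18 was below background throughout.

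Chil3 (10501020) encodes Ym1, a chitinase-like protein without enzyme activity that macrophages and neutrophils make. It read 9.39 on the array labelled RBPJ-deficient, 8.87 in control Esam(lo) cells and 7.21 in control Esam(hi) cells, where it was 0.045 above background. Over control Esam(hi) cells Chil3 was thus 4.54-fold higher on the labelled array and 3.16-fold higher in control Esam(lo) cells. The labelled array stood 1.44-fold above control Esam(lo) cells (difference 0.52). Its close copy Chil4 was below background on all 3 arrays. Chil1, another chitinase-like gene, read 9.27, 9.28 and 7.92 on the labelled, control Esam(lo) and control Esam(hi) arrays and did not share the gap between the Esam(lo) arrays (difference -0.01).

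Hp (10581605) encodes haptoglobin, which captures free haemoglobin. It read 8.82 on the array labelled RBPJ-deficient and 8.86 on the control Esam(lo) array, against 7.57 on the control Esam(hi) array. The differences were 2.38-fold and 2.45-fold, the smallest of the 6 genes that passed 2-fold. With the trend of difference on level removed, Hp fell short of 2-fold in both comparisons (0.85 and 0.90). Cd163, the scavenger receptor for haptoglobin and haemoglobin, and Hpx, which binds free haem, were below background on all 3 arrays. Downstream of haem uptake, the haem oxygenase gene Hmox1 read 8.40, 8.59 and 7.50 on the labelled, control Esam(lo) and control Esam(hi) arrays.

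Cd14 (10458382) was the only member below background on any array. It read 8.97 on the array labelled RBPJ-deficient and exactly the same in control Esam(lo) cells, against 7.01 on the control Esam(hi) array. Against that array's background Cd14 was at least 3.48-fold higher on each Esam(lo) array. An exact tie is common in these values, in 40.1% of 9348 genes tested between the Esam(lo) arrays, and does not show that the gene was equal.

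The receptor complex around Cd14 was uneven. Tlr4 itself was below background on all 3 arrays. Ly96, the protein that binds lipopolysaccharide within the Tlr4 complex, read 9.44 on the array labelled RBPJ-deficient, 8.86 in control Esam(lo) cells and 6.40 in control Esam(hi) cells, below background. Its differences over control Esam(hi) cells were at least 4.83-fold on the labelled array and at least 3.24-fold in control Esam(lo) cells. The adaptor gene Myd88 read 10.59, 10.94 and 9.42, and Irak3, a kinase-like inhibitor of the same pathway, read 8.89, 8.89 and 7.36 in the same order. Among 22 pathway genes above background, control Esam(lo) cells had 8 at least 2-fold higher and none lower than control Esam(hi) cells, with a median difference of 0.51 against 0.30 over all genes tested, of which 11.3% passed 2-fold upward. The 8 include Tram1, a protein of the endoplasmic reticulum translocon that the list holds although it is not the lipopolysaccharide adaptor of that name (Ticam2, difference 0.79). They also include the scavenger receptor gene Cd36, which was below background in control Esam(hi) cells and is only bounded at 1.44-fold or more. With the level trend removed 4 listed genes passed 2-fold.

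The transcription factor genes differed least. Cebpa (10552140), which progenitors need to become granulocytes and monocytes, read 8.60 on the array labelled RBPJ-deficient and 8.61 on the control Esam(lo) array, against 7.74 on the control Esam(hi) array. Its differences of 0.86 and 0.87 fell short of 2-fold. Cebpb (10478890), which patrolling monocytes need, read 8.49 and 8.58 on these arrays, against 8.08 on the control Esam(hi) array. Its differences of 0.41 and 0.50 were near the median of all genes (0.31 and 0.30).

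The direction of Cebpb depended on scaling on the labelled array. With the level trend removed its difference from the control Esam(hi) array was -0.0077, and with the other scalings it was positive, between 0.076 and 0.52. None of the other C/EBP genes on the array was 2-fold apart. On the labelled, control Esam(lo) and control Esam(hi) arrays Cebpd read 7.32, 7.24 and 6.88 (the last below background), and Cebpe 7.71 on each. Cebpd thus differed from the control Esam(hi) array by 0.44 and 0.36, about as much as Cebpb. Trib1, an adaptor that sends C/EBP alpha for degradation, differed more, at 10.33, 10.27 and 8.43 in the same order. Of 10 genes of the C/EBP family and its regulators above background, 2 passed 2-fold upward in control Esam(lo) over control Esam(hi) cells, Trib1 and Nfil3, and Nfil3 fell short with the level trend removed. The list's median difference was 0.02, and 11.3% of all genes tested passed 2-fold upward in that comparison.

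Set together, the 8 members all read higher in control Esam(lo) than in control Esam(hi) cells, 6 of them at least 2-fold and none lower. Of 9466 genes with the brighter array above background, 11.3% passed 2-fold upward and 0.792% downward. The median difference of the members was 1.81, or 1.73 with Cd14 at its bound, against 0.30 over all genes tested. At 3-fold, 5 members remained, where 2.07% of genes did. The members were known from earlier results of these data to differ, so their share is a description and not independent evidence.

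The array labelled RBPJ-deficient gave similar counts against the same control Esam(hi) array, which both comparisons share. Again 6 of 8 members were at least 2-fold higher and none lower, where 12.9% of 9312 genes were higher and 1.18% lower, and the median difference was 2.07, or 1.99 with Cd14 at its bound. Much of the background went with level. With the level trend removed, 390 genes were higher and 215 lower in control Esam(lo) than in control Esam(hi) cells, in place of 1066 and 75, and the median of all genes moved to -0.02. Of the members 5 were then past 2-fold, where 4.12% of genes were. For the labelled array the trend-removed counts were 452 higher and 281 lower, in place of 1203 and 110, and 5 members were past 2-fold, where 4.85% of genes were.

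**Figure D2:**
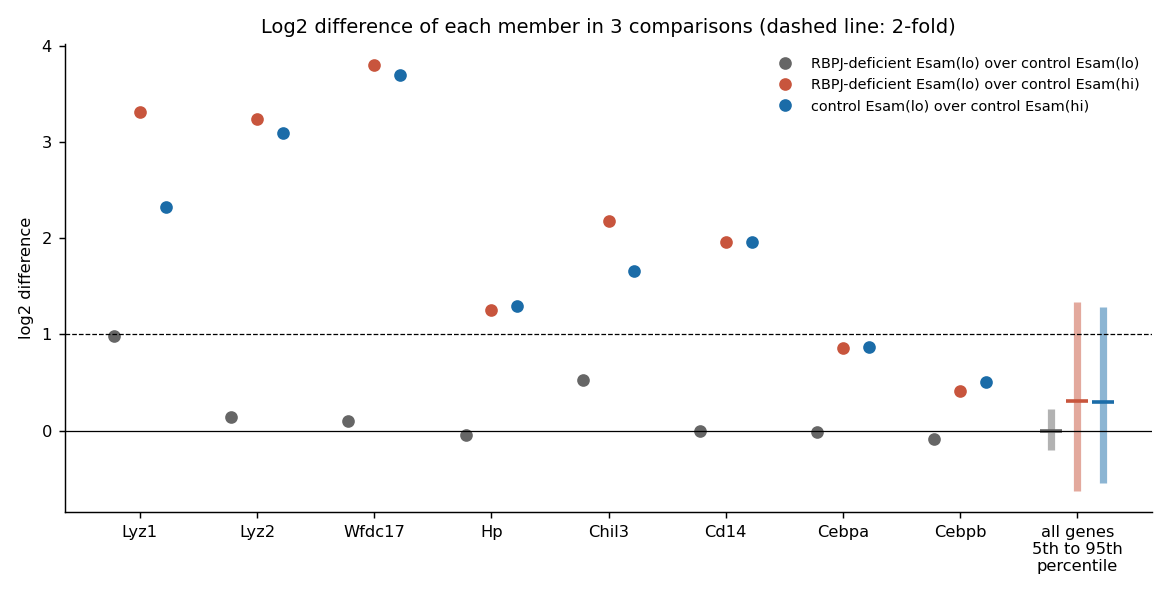
Log2 difference (y axis) of each member in 3 comparisons, as deposited; the vertical bars at right span the 5th to 95th percentile of all genes tested, with a mark at their median. Against the control Esam(hi) array 6 members lie above the dashed 2-fold line, and between the Esam(lo) arrays Lyz1 at 0.98 and Chil3 at 0.52 lie apart from the other 6.

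**Figure D3:**
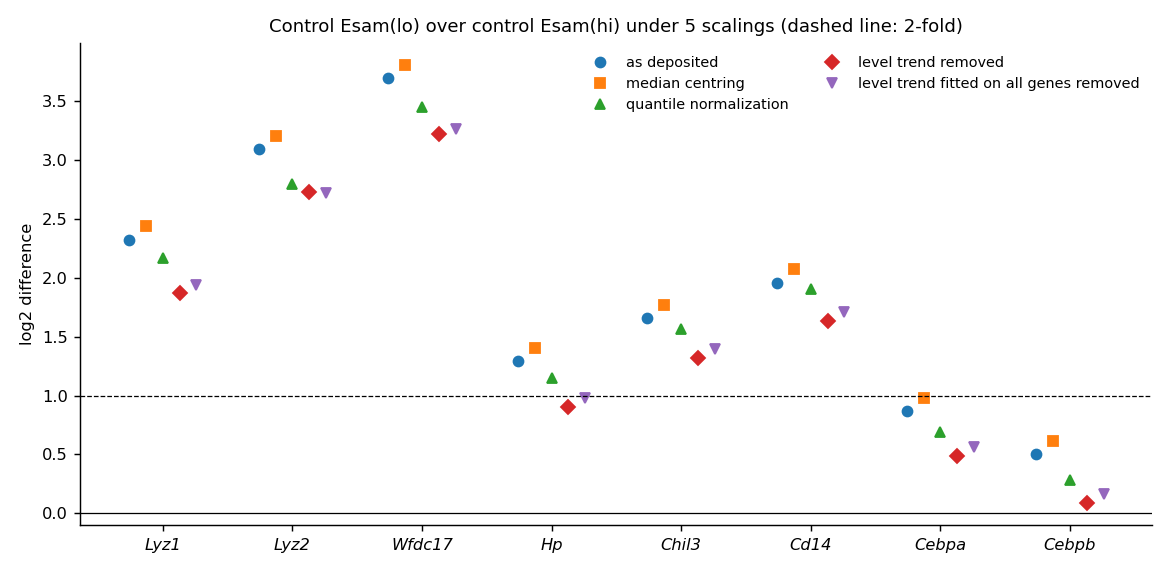
Log2 difference (y axis) of each member, control Esam(lo) over control Esam(hi), under 5 scalings of the arrays. The order from Wfdc17 to Cebpb held under each scaling, and Hp crossed the dashed 2-fold line, from 1.41 with median centring to 0.90 with the level trend removed.

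The array labelled RBPJ-deficient was then set against its phenotypic match, the control Esam(lo) array. No member was 2-fold apart, in a comparison where 0.0749% of 9348 genes were higher and 0.193% lower. Members differed among themselves, however. Lyz1 had the 9th highest difference of all genes tested (0.98) and Chil3 the 54th (0.52), while the other 6 lay between -0.09 and 0.14. At 1.5-fold Lyz1 alone of the members was higher, where 0.396% of genes were. The differences of Lyz1 (0.98 to 0.99) and Chil3 (0.49 to 0.52) hardly moved over the 5 scalings. Both genes were high on the same single array, so the spread between mice is not known.

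Other genes of the classical monocyte programme resembled the members against the control Esam(hi) array. Of 26 listed genes 21 were on the array, all 21 above background somewhere. In control Esam(lo) cells 16 were at least 2-fold higher and none lower (median 1.60), 13 of 21 with the level trend removed. The shares of all genes tested were 11.3% higher and 0.792% lower, and 4.12% higher with the level trend removed. One of the 16, Mgst1, read below the Esam(hi) background on every array, so no fold is given for it. Clec12a, an inhibitory lectin receptor, read 10.08, 9.77 and 6.02 on the labelled, control Esam(lo) and control Esam(hi) arrays. Ccr2, the receptor that brings monocytes out of the marrow, read 9.84, 9.64 and 6.32 in the same order. Both were below background in control Esam(hi) cells, so in control Esam(lo) cells they are bounded at 6.07-fold (Clec12a) and 5.55-fold (Ccr2) or more. Fn1, which encodes fibronectin, read 10.97, 11.12 and 7.62.

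Between the Esam(lo) arrays none of these 21 was 2-fold apart, 10 being higher, 6 lower and 5 tied on the labelled array (median 0.00). The shares of all genes tested were 29.3% higher, 30.6% lower and 40.1% tied. The 21 ranged from -0.52 for Tgfbi to 0.66 for Thbs1, both named after their values were seen, so Lyz1 lay outside their range. Genes of patrolling monocytes had a lower median between the control arrays, but some differed about as much as Wfdc17 (12.97-fold). Ace, which encodes the angiotensin-converting enzyme, was 12.5-fold higher in control Esam(lo) than in control Esam(hi) cells. Adgre4 read 10.53 against 6.74, the latter below background, and is bounded at 10.3-fold or more. Cd274 (-0.31) and Eno3 (-0.08), named after their values were seen, read lower. Of 18 above background, control Esam(lo) cells had 9 at least 2-fold higher (median 1.03, or 0.72 with bounded genes at their bounds), and 6 with the level trend removed. The 9 include Cd36, whose bound is under 2-fold as given above. They also include Cx3cr1, which carries the GFP reporter the cells were sorted on, so its direction was set by the sort. Over all genes tested 11.3% passed 2-fold upward, and 4.12% with the level trend removed. On the labelled array 15 of the 18 read lower and 1 higher than in control Esam(lo) cells, without any at 2-fold, with a median of -0.09. Over all genes tested 30.6% were lower. Ace was farthest down, at 9.98 on the labelled array against 10.91 on the control Esam(lo) array (-0.93). With 1 array a group, the difference between these lists and the members was not tested.

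**Figure D4:**
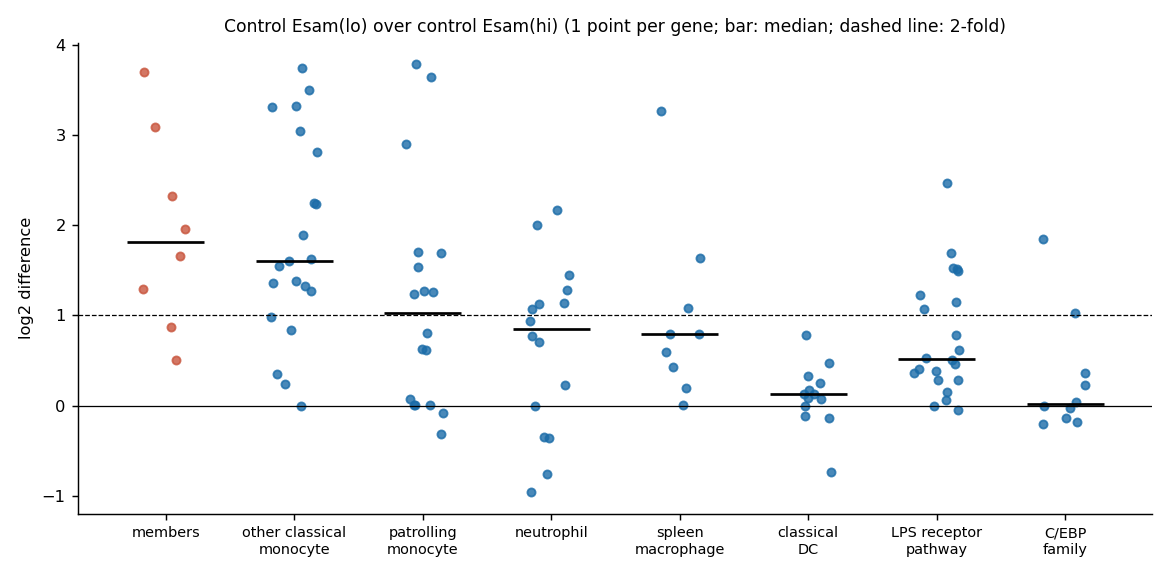
Log2 difference, control Esam(lo) over control Esam(hi), of each gene above background (points) in the members and 7 gene lists, with the list's median as a bar. The members (1.81) and the other classical monocyte genes (1.60) have the highest medians, and classical DC markers (0.13) and the C/EBP family (0.02) lie near 0.

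**Figure D5:**
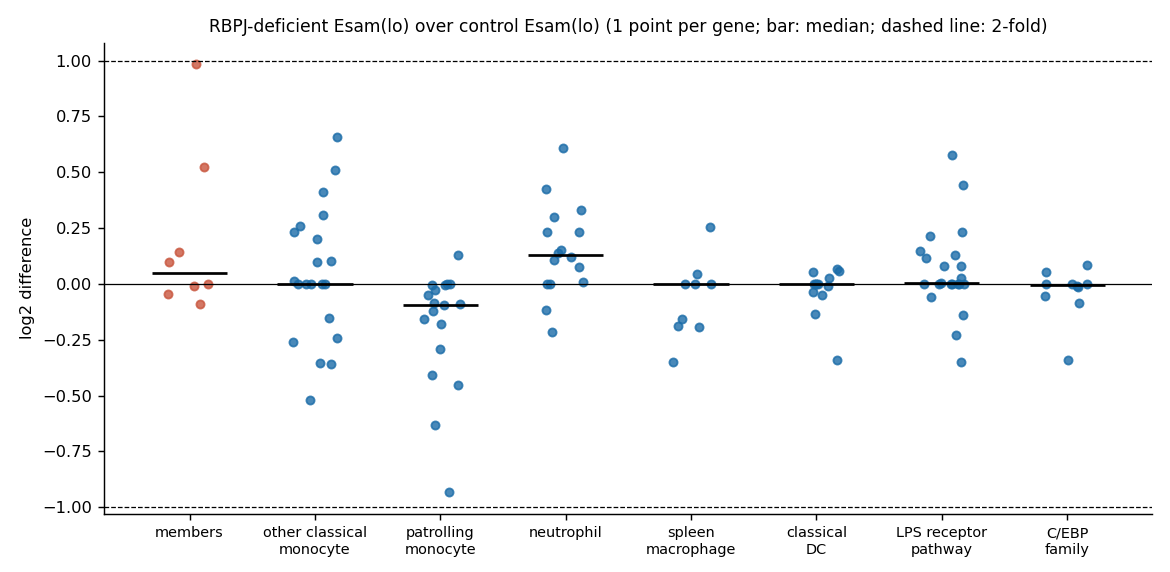
Log2 difference, RBPJ-deficient Esam(lo) over control Esam(lo), of each gene above background (points) in the same lists, with the list's median as a bar. Lyz1 at 0.98 is the highest point, and the patrolling monocyte genes reach down to -0.93.

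Several of the members are also made by neutrophils and macrophages, and markers of both cell types were present. In such sorted pools, fewer cells of a type and less RNA per cell cannot be told apart. Of 17 neutrophil markers 16 were above background, and 7 of them passed 2-fold upward in control Esam(lo) over control Esam(hi) cells (median 0.85, or 0.64 with bounds). With the level trend removed 3 did, and 1 passed 2-fold downward. The upward shares of all genes tested were 11.3% as deposited and 4.12% with the level trend removed, where 215 of 9466 genes passed downward. The summed signal of all 17 on the linear scale was 23531 on the labelled array, 21634 for control Esam(lo) cells and 10237 for control Esam(hi) cells. Ngp and Lcn2 were the brightest of the 17 on each array and weigh most in these sums. S100a8, a calcium-binding protein abundant in neutrophils, read 10.65, 10.53 and 8.35, and the receptor gene Csf3r read 9.13, 9.34 and 7.34. Of the 16, 4 went the other way between the control arrays, Mpo (-0.96), Mmp9 (-0.76), Ctsg (-0.35) and Elane (-0.35). These 4 were named after their values were seen. Cxcr2, the neutrophil chemokine receptor, was below background on all 3 arrays.

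Against control Esam(lo) cells, 12 of 16 neutrophil markers also had higher values on the labelled array and 2 lower ones (median 0.13, none at 2-fold), beside the differences of Lyz1 and Chil3. Over all genes tested 29.3% were higher and 30.6% lower. Their part in those differences, and in the members' differences from control Esam(hi) cells, was not tested. Of 16 red pulp and marginal zone macrophage markers 9 were above background. Of these, 3 (Hpgd, C1qb and Hmox1) passed 2-fold upward in control Esam(lo) over control Esam(hi) cells, where 11.3% of all genes tested did. The summed signal of all 16 was 4649, 4845 and 2927 on the labelled, control Esam(lo) and control Esam(hi) arrays. Cd163, Marco, Siglec1, Cd5l, Slc40a1, Mrc1 and Mertk were below background on all 3. Of 8 eosinophil and basophil markers 2 were above background and none was 2-fold apart. Classical DC markers, with summed signals of 79430, 79467 and 71921, had none of 13 at 2-fold in any comparison as deposited, the farthest being Kmo (0.79) and Ccr7 (-0.74) in control Esam(lo) over control Esam(hi) cells. With the level trend removed Ccr7 passed 2-fold there (-1.07).

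The genes most like the members were found by centring each gene on its own mean over the 3 arrays and taking the Euclidean distance to the members' mean profile. Among 9304 other protein-coding genes above background, the nearest were Psma6, a proteasome subunit, at a distance of 0.022 log2 units, and Tnfsf9, the ligand of 4-1BB, at 0.033. Next came the neutrophil-attracting chemokine gene Cxcl2, the respiratory chain gene Ndufb5, the lectin receptor gene Klra17 and Myof, at up to 0.061. These last 4 read below background on the control Esam(hi) array, so their distances and order rest in part on values not above background, and any such likeness rests on 3 values. Cd14 was the member closest to the mean profile (0.15) and Wfdc17 the farthest from it (1.41).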

How the data were processed

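RNA of 3 sorted cell populations was hybridised to Affymetrix Mouse Gene 1.0 ST arrays, 1 array per group. The table deposited by the authors gives log2 values for each probe set, made with RMA in Affymetrix Expression Console per the submitters' processing notes. No version, and no statement of which arrays were normalized together, is given in the sources used here. RMA corrects for background, adjusts array distributions and summarises probes by median polish, which leaves many exact ties: 57.1% of genes had at least 1. The columns do not share 1 distribution.

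Of 35556 probe sets, 21789 have 1 gene in the platform annotation (1621 several, 12146 none); 21698 Entrez numbers matched a GRCm38.p6 gene table, which changed no symbol. The probe set with the highest mean stood for each of 19938 genes. A gene was counted at a log2 difference of at least 1 (2-fold) with the brighter array above background (in a tie, the array named first), and a fold against an array below background is a lower bound against that background level. Arrays have no sequencing depth, and their number limits the precision of each value. Alternatives were median centring, quantile normalization, removal of a lowess trend (fraction 0.3, statsmodels 0.14.6), no filter, a filter at the 75th percentile, 1.5-fold and 3-fold limits, and the mean over probe sets. A trend fitted on all genes was added after seeing the data. Promoters came from RefSeq.

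Members and gene lists were chosen with earlier results of these data known. Named genes are the 8 members, up to 4 genes of each list (those farthest apart between the control arrays), near relatives of the members, sort markers and the 6 genes of most similar pattern; others are said to be chosen after their values were seen.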

Additional observations from a re-analysis of the deposited data

How the results depend on the processing

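The counts of members past 2-fold held within 1.5 times under every alternative run, apart from the comparison of the Esam(lo) arrays at 1.5-fold, where 1 member, Lyz1, was counted in place of 0. Hp lost its 2-fold call against the control Esam(hi) array with the level trend removed, at 0.85 on the array labelled RBPJ-deficient and 0.90 on the control Esam(lo) array (0.93 and 0.98 with the trend fitted on all genes), and kept it under the other scalings. Which scaling is right cannot be settled with 1 array per group.

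Counts over all genes moved far more. For control Esam(lo) over control Esam(hi), 1066 genes were higher and 75 lower. These became 651 and 150 with quantile normalization, 390 and 215 with the trend removed, 487 and 180 with the trend fitted on all genes, 2944 and 405 at 1.5-fold and 196 and 12 at 3-fold, and median centring left 47 lower. For RBPJ-deficient Esam(lo) over control Esam(hi), 1203 higher and 110 lower became 719 and 211, 452 and 281, 567 and 223, 3014 and 528, and 257 and 20 under the same settings, and 72 were lower with median centring. For RBPJ-deficient over control Esam(lo), 7 higher and 18 lower became 37 and 48 at 1.5-fold and 3 and 2 at 3-fold, and the filter at the 75th percentile left 3 higher. No paired analysis was possible because each group has 1 array. Levels near background, those of Lyz1, Chil3 and Cd14 on the control Esam(hi) array, limit how exactly their folds are known.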

Other observations

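Transcription factor genes of monocyte and granulocyte development other than the members passed 2-fold upward in a share close to that of all genes. Of 19 above background, control Esam(lo) cells had 2 at least 2-fold higher and none lower than control Esam(hi) cells. Over all genes tested 11.3% were higher and 0.792% lower. The list's median difference was 0.00, against 0.30 over all genes tested. The 2 were Irf8 and Zeb2. Irf8, which directs progenitors towards monocytes and DCs, read 10.07, 10.29 and 8.58 on the labelled, control Esam(lo) and control Esam(hi) arrays. Zeb2, a repressor of alternative myeloid fates, read 10.45, 10.14 and 8.58. Spi1, which encodes PU.1, read 11.63, 11.80 and 11.28, and Runx1 read 10.69, 11.03 and 10.39.

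The haptoglobin and acute phase list holds genes of haem and iron handling and others such as Lrg1. All 10 of its genes above background had higher values in control Esam(lo) than in control Esam(hi) cells, 3 of them at least 2-fold (median 0.60), and 1 turned negative with the level trend removed. Over all genes tested 69.2% had higher values and 11.3% passed 2-fold upward. Lrp1, the receptor for haem bound to haemopexin, read 10.28, 10.78 and 8.50 on the labelled, control Esam(lo) and control Esam(hi) arrays. Lcn2, which binds bacterial iron carriers, read 12.26, 12.25 and 10.80, and the ferritin gene Ftl1 read 12.50, 12.57 and 11.62.

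Markers of other cell types were above background in differing numbers. Of 8 B cell markers on the array 2 were above it, as were 2 of 7 T cell markers, 2 of 8 natural killer cell markers, 5 of 7 plasmacytoid DC markers, 3 of 5 erythroid markers and 2 of 5 platelet markers. The natural killer markers Klrd1 and Klrk1 both passed 2-fold upward in control Esam(lo) over control Esam(hi) cells, where 11.3% of all genes tested did. The plasmacytoid DC markers Tcf4 and Spib were 2.32-fold and 2.28-fold higher there, short of 2-fold with the level trend removed, while Siglech was below background on all 3 arrays. Of the other plasmacytoid DC markers above background, Ccr9 (0.44) and Bst2 (0.22) read higher in that comparison and Cox6a2 lower (-0.65), each short of 2-fold. The erythroid marker Car1, a carbonic anhydrase gene, had a below-background value of 6.71 on the labelled array, with 7.83 in control Esam(lo) and 7.86 in control Esam(hi) cells, and was named after its values were seen.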
